A study of Citrus sinensis with 36 samples.

Results

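The core of the flavonoid pathway was represented by 57 of the 29654 genes measured in sweet orange fruit. These 57 members were chosen by words in the description of their closest known protein (chalcone, naringenin, flavanone, flavonol synthase, flavonoid 3, flavone synthase, dihydroflavonol, leucoanthocyanidin, anthocyanidin reductase or stilbene synthase), and enzymes that transfer sugars were left out. Fruits of 3 late-ripening Valencia oranges (VO; Cutter, Delta and Rohde Red) were set against those of 3 common sweet oranges (CO; Jincheng, Taoye and Xianfeng), in a study of the inferior mastication trait of VO pulp. Each variety gave 3 RNA-seq libraries of pulp and 3 of peel, which made 9 libraries for each of VO pulp, CO pulp, VO peel and CO peel and 36 in all. Every fruit was picked at 220 days after flowering in 1 nursery, when VO fruit was still colouring and CO fruit was mature. Variety group and ripening stage therefore cannot be told apart in any VO and CO comparison below. Each library held RNA of fruits from more than 1 tree, and groups were compared over their variety means (n = 3 in each group).

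Flavonoids are built from a phenylpropanoid, coumaroyl-CoA, which also feeds lignin. Chalcone synthase (CHS) joins it with malonyl-CoA, and chalcone isomerase (CHI) closes the product to the flavanone naringenin. Flavanone 3-dioxygenase (F3H) and flavonol synthase (FLS) lead on to flavonols, and the flavonoid hydroxylases, which are cytochrome P450 enzymes, add hydroxyl groups to the ring. Dihydroflavonol reductase (DFR) and anthocyanidin synthase (ANS) form the pigment branch, and leucoanthocyanidin and anthocyanidin reductases form flavan-3-ols. Citrus fruit is known for its flavanone glycosides, such as hesperidin of sweet orange, and common sweet orange has little anthocyanin outside the blood oranges.

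The members fell into 10 classes. There were 13 genes of the CHS type, 2 of the CHI type, 4 of the F3H type, 15 of the flavonoid 3'-hydroxylase type, 6 of the flavonoid 3',5'-hydroxylase type, 5 of the FLS type, 2 of the DFR type, 1 ANS gene, 4 flavan-3-ol reductases and 5 others. Expression was given as FPKM, fragments per kilobase of gene scaled to the mapped fragments of the library, which allows levels of different genes to be compared per length. Members entered the test of a tissue if any variety averaged 0.3 FPKM or more there. In pulp 29 members passed this limit, in peel 34 did, and 35 passed in either tissue. The other 22 stayed below it everywhere, among them 8 of the 13 CHS genes, and 7 of the 22 had no fragment in any library.

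Only some of these genes carried the ortholog number of a flavonoid enzyme. Whether the others act in the pathway was not tested. Of the 57 members, 20 carried the ortholog number of a flavonoid enzyme in the deposited annotation, and 10 of these 20 were expressed above the limit. The summed level of the 20 averaged 203 ± 33.0 FPKM in VO pulp and 162 ± 43.7 FPKM in CO pulp, and 140 ± 26.4 FPKM in VO peel and 153 ± 11.9 FPKM in CO peel (SD, n = 3 varieties each). The other 37 genes summed to 240 ± 20.2 FPKM in VO pulp and 144 ± 10.3 FPKM in CO pulp, and to 382 ± 53.6 FPKM in VO peel and 280 ± 12.2 FPKM in CO peel. In peel, genes without such a number thus held the larger part of the members' summed level in both groups. Of the 15 genes of the flavonoid 3'-hydroxylase type a single one, Cs5g11730, carried the number of that enzyme, and the closest plant proteins of the rest included cytochrome P450 71A1-like and uncharacterized proteins. Of the pair of DFR genes, Cs3g23700 matched a cyanobacterial protein and carried the number of another enzyme. The 4 genes of the 2-hydroxyisoflavanone dehydratase type were named after an isoflavone enzyme of licorice.

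In pulp, CHI and 1 of the 4 tested CHS genes were higher in VOs than in COs. The CHS gene Cs2g14720, the CHI gene and a CHI-like gene were 11.1-fold, 5.82-fold and 6.90-fold higher in mean FPKM, while the CHS gene with the most transcript did not pass the test. Cs2g14720 (chalcone synthase 2) had a lowest, median and highest library of 6.92, 8.5 and 9.81 FPKM in VO pulp, against 0.0771, 0.447 and 2.20 FPKM in CO pulp. Cs7g28130 (CHI) had 2.56, 4.01 and 4.57 FPKM in VO pulp, against 0.397, 0.518 and 0.939 FPKM in CO pulp. Cs7g29780, named after CHI 3 of Arabidopsis, a CHI-like protein known there to assist CHS, had 6.82, 7.82 and 10.8 FPKM in VO pulp, against 0.413, 1.24 and 1.84 FPKM in CO pulp. For each of these 3 genes every VO pulp library lay above every CO pulp library. The log2 differences, VO minus CO on log2(FPKM + 0.1), were 3.69 (SE 0.54, adjusted p = 0.00666), 2.38 (SE 0.25, adjusted p = 0.00223) and 2.82 (SE 0.40, adjusted p = 0.00618), from limma on the variety means with Benjamini-Hochberg adjustment over all genes tested. A log2 difference of 1 is a doubling, and the added 0.1 FPKM makes the differences of low genes smaller than they are. All 3 calls held with each variety left out in turn. In bulk tissue, a smaller number of expressing cells and less RNA per cell cannot be told apart.

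The main CHS gene showed another picture. Cs3g19360 supplied 85.3% of the summed CHS level in VO pulp and 96.0% in CO pulp. It averaged 55.1 ± 25.7 FPKM in VO pulp and 59.4 ± 24.4 FPKM in CO pulp, with a log2 difference of -0.14 (SE 0.44, adjusted p = 0.842). Its variety means ran from 28.3 FPKM in Delta to 79.6 FPKM in Cutter among VOs, and from 35.7 FPKM in Taoye to 84.5 FPKM in Jincheng among COs, so both groups spanned nearly the same range. The summed CHS level was 64.6 FPKM in VO pulp and 61.8 FPKM in CO pulp. The summed level of the CHI type was 12.1 FPKM in VO pulp and 1.84 FPKM in CO pulp. The CHI-like gene Cs7g29780 held 70.0% of that sum in VO pulp and 66.3% in CO pulp. Cs3g19360 and Cs3g19350, the gene of the preceding number, are both described as chalcone synthases. Their sequences were not compared, and fragments may have been split between them if they are similar.

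**Figure D1:**
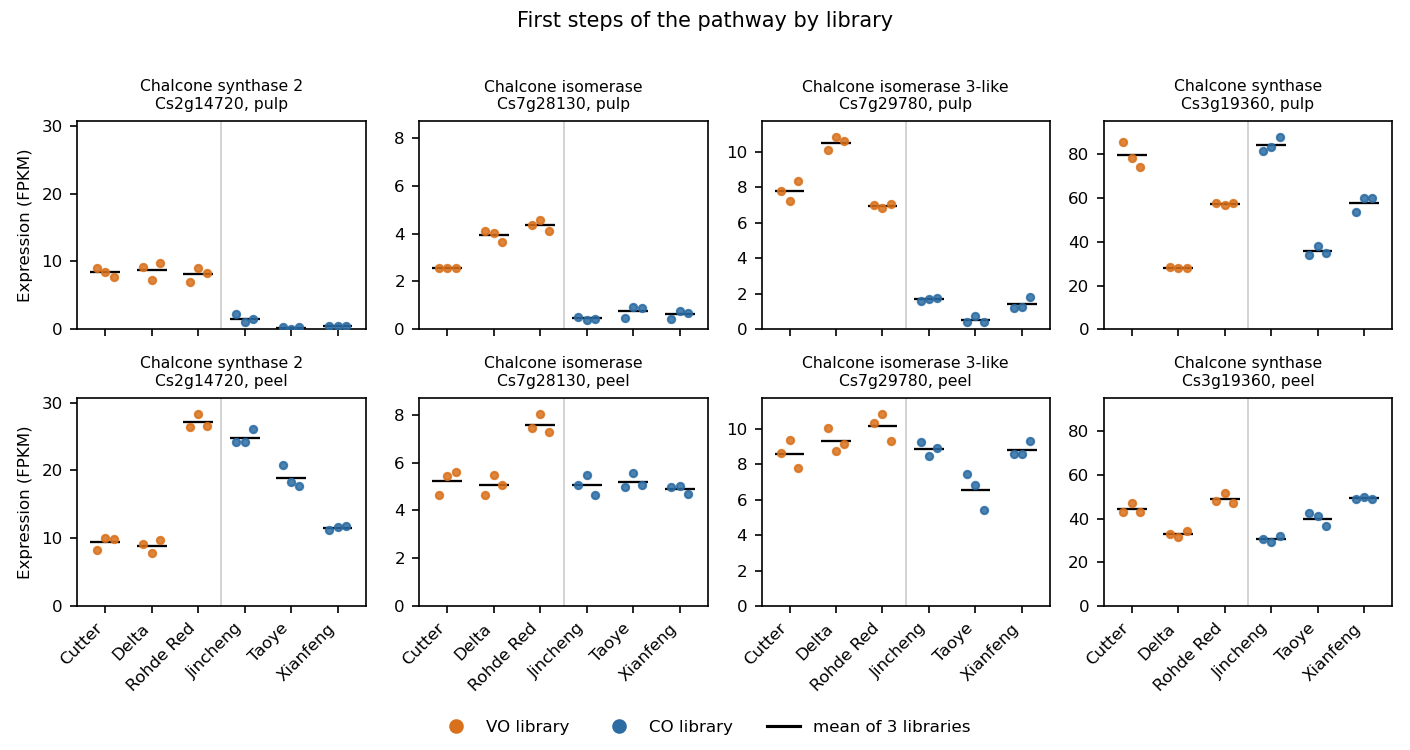
Expression in FPKM of 4 genes of the first steps in pulp (upper row) and peel (lower row), on axes that start at 0, with a point for each library, a line at the mean of the 3 libraries of a variety, VO varieties on the left and CO varieties on the right. In pulp the 9 VO libraries of Cs2g14720, Cs7g28130 and Cs7g29780 sit above the 9 CO libraries, whereas in peel the groups overlap, and Cs3g19360 overlaps in both tissues.

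Markers of cuticle and epidermis, of green tissue and of vascular tissue moved with the groups as well, in pulp and in peel. Their part in the VO and CO differences of the members was not tested. The 23 genes of cuticle and epidermis summed to 74.2 to 112 FPKM in VO pulp libraries and 21.0 to 46.0 FPKM in CO pulp libraries. In VO and CO pulp, 4 and 5 of these genes were at 0 in all libraries of the group. Of 15 tested in pulp, 7 were higher and 2 lower in VOs, against 12% and 7.48% of all genes. In peel the 23 genes summed to 57.8 to 69.1 FPKM in VOs and 89.6 to 141 FPKM in COs, with 3 and 4 genes at 0. Of 15 tested in peel, 5 were higher and 4 lower in VOs, against 13.2% and 7.15% of all genes. The 12 chlorophyll a-b binding proteins of green tissue summed to 48.4 to 64.3 FPKM in VO pulp and 14.6 to 20.5 FPKM in CO pulp, and to 107 to 221 FPKM in VO peel and 29.8 to 88.0 FPKM in CO peel, with none at 0. In pulp 10 of 11 tested were higher in VOs, and in peel 8 of 12, with 0 lower in either tissue. The 29 vascular genes summed to 2.59 to 12 FPKM in VO pulp and 1.21 to 3.43 FPKM in CO pulp, with 8 and 11 genes at 0, and to 17.9 to 25.9 FPKM in VO peel and 3.56 to 14.3 FPKM in CO peel, with 7 and 8 at 0. In pulp 4 of 10 tested were higher in VOs, and in peel 7 of 13, with 0 lower in either tissue. The 12 seed genes overlapped, at 10.8 to 35 FPKM in VO pulp and 16.3 to 25.8 FPKM in CO pulp. Libraries held 14.8 to 18.8 M fragments, with medians of 16.9 M in VO pulp, 16.4 M in CO pulp, 16.1 M in VO peel and 16.2 M in CO peel.

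F3H, FLS, F3'H and ANS were each expressed at a higher FPKM than CHI in pulp, and none of them passed the test between groups there. F3H (Cs1g25280), which supplied nearly the whole level of its class, had a lowest, median and highest library of 18.1, 19.1 and 24.9 FPKM in VO pulp, against 8.02, 14.9 and 17.2 FPKM in CO pulp. The libraries did not overlap, yet the variety means of COs spread widely, and the log2 difference of 0.71 (SE 0.26) had an adjusted p of 0.103 in limma. FLS (Cs1g19280) was the most expressed member with a flavonoid ortholog number and had 80.2, 94.4 and 100 FPKM in VO pulp, against 52.6, 67.7 and 90.1 FPKM in CO pulp. Its log2 difference of 0.42 (SE 0.12) missed the threshold (adjusted p = 0.0519 in limma), and it passed without Xianfeng (adjusted p = 0.0222) and without replicate 2 (adjusted p = 0.0158). Under other alternatives the adjusted p of FLS in limma reached 0.145. ANS (Cs5g09970) averaged 10.9 ± 2.48 FPKM in VO pulp and 8.56 ± 4.54 FPKM in CO pulp, and F3'H (Cs5g11730) 11.4 ± 1.22 FPKM in VO pulp and 8.91 ± 3.31 FPKM in CO pulp, and neither passed (adjusted p = 0.481 and 0.331 in limma).

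Within the pigment branch, few fragments came from the reductase. The DFR gene with the ortholog number, Cs3g25090, had 1 fragment in all 9 VO pulp libraries and 32 fragments in the 9 CO pulp libraries, most of them in Jincheng, where it averaged 0.335 FPKM. Its log2 difference of -0.70 did not pass the test (adjusted p = 0.442 in limma). ANS, the next enzyme, stood at 7.29 FPKM or more in every VO pulp library. The reductases of flavan-3-ols were low as well. Cs4g12170, an anthocyanidin reductase type gene, averaged 0.968 ± 0.154 FPKM in VO pulp and 1.39 ± 0.297 FPKM in CO pulp (log2 difference -0.47, adjusted p = 0.132 in limma).

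In total 8 of the 29 members tested in pulp were called, 7 higher and 1 lower in VOs, against 19.5% of all genes (12% higher and 7.48% lower). With a filter of 1 FPKM, 6 of 21 members were called in pulp, against 21.1% of all genes. The median log2 difference was 0.32 over the members and 0.02 over all genes. Of the 9 members with a flavonoid ortholog number, 2 were called. The variety means of the groups did not overlap for 16 of the 29 members, 11 higher and 5 lower in VOs, against 42.7% of all genes.

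Within the groups, members also differed between varieties. All 9 tested members with a flavonoid ortholog number differed among the 3 CO varieties in pulp, and 20 of the 29 members did, against 54.8% of all genes (moderated F in limma over libraries, whose p-values reflect only how far libraries of the same variety differ). Taoye had the lowest CO mean for 8 of these 9 genes. Over all 29 members tested in pulp, Taoye was lowest among COs for 14 and highest for 13. The same shares over all genes were not computed. ANS stood at 3.34 ± 0.142 FPKM in Taoye pulp, against 11.6 ± 0.718 in Jincheng and 10.7 ± 0.815 in Xianfeng (SD, n = 3 libraries, adjusted p = 3.6e-11 in limma). F3H stood at 8.21 FPKM in Taoye, against 15.0 FPKM in Jincheng and 16.2 FPKM in Xianfeng, and F3'H at 5.26 FPKM in Taoye, against 11.7 and 9.79 FPKM in the same varieties. CHI was the exception among the 9, with its highest CO mean of 0.770 FPKM in Taoye. Among VOs, 16 of the 29 members differed in pulp, against 28.4% of all genes. Rohde Red was lowest for 6 of the 9 ortholog members there. Over the 29 members Rohde Red was lowest for 12 and Cutter for 11. Cs2g14720, with variety means of 8.44, 8.78 and 8.11 FPKM in Cutter, Delta and Rohde Red pulp, did not differ among VOs (adjusted p = 0.953 in limma).

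**Figure D2:**
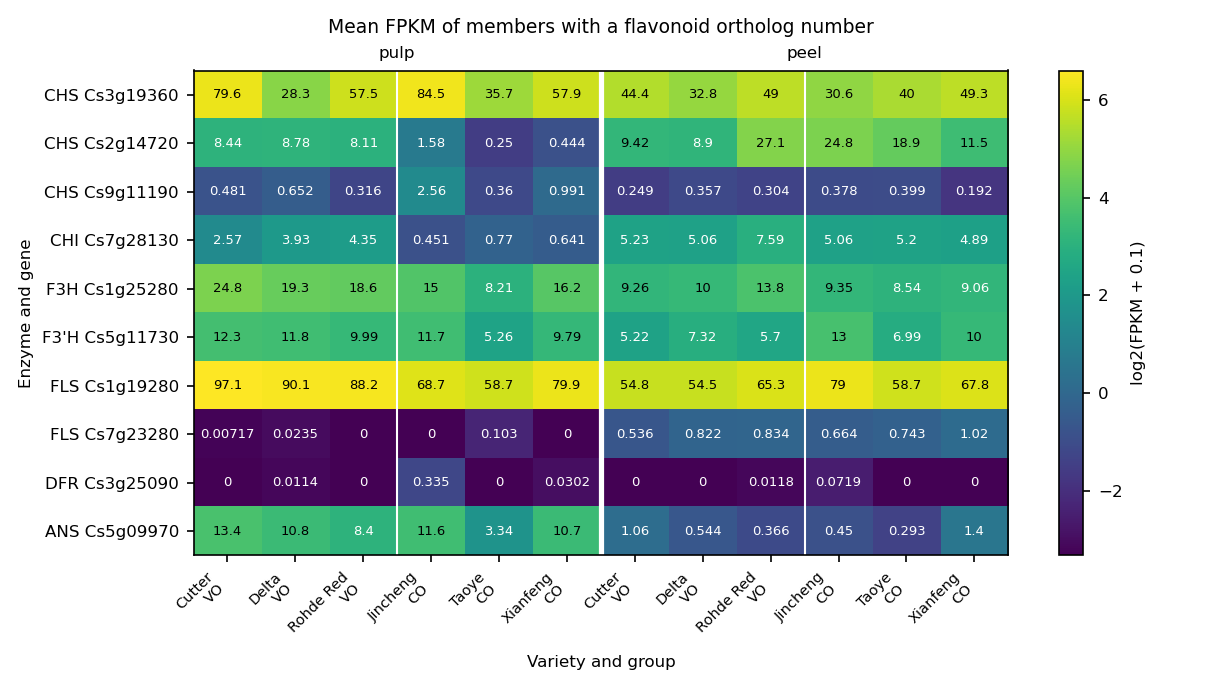
Mean FPKM of the 10 expressed members with a flavonoid ortholog number in the 12 combinations of variety and tissue, pulp on the left and peel on the right, with VO varieties left of CO varieties and the colour on a log2(FPKM + 0.1) scale. CHS Cs2g14720 (at most 1.58 FPKM) and CHI Cs7g28130 (at most 0.770 FPKM) are darker in all 3 CO pulps than in the VO pulps, and Taoye has the lowest pulp value of F3H, F3'H, FLS and ANS.

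In peel the same enzymes did not pass the test. Of the 9 tested members with a flavonoid ortholog number, 0 were called in peel by limma, against 20.4% of all genes. Whether 0 of 9 differs from that share was not tested. In limma 1 of the 9 had an unadjusted p under 0.05. Cs2g14720 had a lowest, median and highest library of 7.79, 9.89 and 28.4 FPKM in VO peel, against 11.2, 18.2 and 26.1 FPKM in CO peel (log2 difference -0.42, SE 0.48, adjusted p = 0.576 in limma). The groups overlapped, because Rohde Red peel averaged 27.1 FPKM while Cutter and Delta averaged 9.42 and 8.90 FPKM. CHI had 4.63, 5.46 and 8.05 FPKM in VO peel, against 4.63, 5.01 and 5.58 FPKM in CO peel, and the CHI-like gene 7.80, 9.30 and 10.9 FPKM in VO peel, against 5.41, 8.57 and 9.29 FPKM in CO peel (adjusted p = 0.389 and 0.296 in limma). F3'H was the gene below an unadjusted p of 0.05, with 6.08 ± 1.1 FPKM in VO peel and 10.0 ± 2.99 FPKM in CO peel (log2 difference -0.68, SE 0.23, adjusted p = 0.0891 in limma), and it was called without Taoye (adjusted p = 0.0236). Under other alternatives the adjusted p of F3'H in limma reached 0.215. Members also varied between the varieties of a group in peel, with 25 of 34 called among VOs (41.1% of all genes) and 22 of 34 among COs (40.1% of all genes).

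The members called in peel came from outside the ortholog set. There were 6 called of 34, 4 higher and 2 lower in VOs, against 20.4% of all genes (13.2% higher and 7.15% lower), with a median log2 difference of 0.21 over the members and 0.05 over all genes. The filter asked for 0.3 FPKM in any 1 variety, so a low gene could enter through the group where it was higher. With a filter of 1 FPKM, 5 of 27 members were called, against 21.8% of all genes. The variety means did not overlap for the same number of members, 4 higher and 2 lower, against 41.7% of all genes.

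The member with the highest mean over the 36 libraries, orange1.1t03165, is a cytochrome P450 described as flavonoid 3'-monooxygenase of Arabidopsis. It had a lowest, median and highest library of 69.8, 88.9 and 91.4 FPKM in VO pulp, against 27.3, 38.8 and 45.2 FPKM in CO pulp, and 151, 162 and 218 FPKM in VO peel, against 103, 109 and 117 FPKM in CO peel. Its neighbour in the numbering, orange1.1t03164, had 31.2, 47.4 and 52.8 FPKM in VO pulp, against 3.93, 5.53 and 12.5 FPKM in CO pulp, and 75.9, 81.7 and 122 FPKM in VO peel, against 31.0, 33.5 and 50.8 FPKM in CO peel. Both genes were higher in every VO library than in every CO library of the same tissue. The log2 differences of orange1.1t03164 were 2.69 (SE 0.36, adjusted p = 0.00486) in pulp and 1.27 (SE 0.22, adjusted p = 0.0122) in peel, and those of orange1.1t03165 were 1.18 (SE 0.19, adjusted p = 0.00847) in pulp and 0.69 (SE 0.14, adjusted p = 0.0176) in peel, all from limma. The last of these was lost without Xianfeng (adjusted p = 0.0688). Neither gene carried the number of a flavonoid enzyme. Genes of consecutive numbers (orange1.1t03164 to orange1.1t03168) are all described as flavonoid hydroxylases, and fragments may have been split between similar copies. The last 3 of them had between 0 and 24 fragments over all 36 libraries.

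Another gene of the type was higher in VO peel at a low level. Cs9g14170 had 0.510, 0.805 and 1.73 FPKM as its lowest, median and highest library in VO peel, against 0, 0.176 and 0.330 FPKM in CO peel (log2 difference 1.98, SE 0.38, adjusted p = 0.0165 in limma). The libraries did not overlap. The fourth gene higher in VO peel was Cs9g17060, described as a CHS but matched to an uncharacterized protein, at 0.503 FPKM in VO peel and 0.112 FPKM in CO peel (adjusted p = 0.0248 in limma). That call was lost without any of Cutter, Delta, Rohde Red or Xianfeng (adjusted p = 0.0658 to 0.0898). In pulp, orange1.1t03176 of the flavonoid 3',5'-hydroxylase type averaged 0.738 ± 0.255 FPKM in VOs and 0.175 ± 0.119 FPKM in COs (log2 difference 1.66, adjusted p = 0.0308 in limma), and was not called without Jincheng, Xianfeng, Delta or Rohde Red (adjusted p = 0.0657 to 0.116). The cytochrome P450 orange1.1t01321 averaged 0.348 FPKM in VO pulp and 0.103 FPKM in CO pulp (adjusted p = 0.0207 in limma), and was not called without Jincheng, Cutter, Delta or Rohde Red (adjusted p = 0.0597 to 0.0915). Cs9g17060 and orange1.1t01321 lay outside the rule for named genes and were chosen after their values were seen.

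A pair of adjacent dehydratase type genes went the other way. The licorice enzyme after which they are named removes water in isoflavone synthesis and belongs to a family of carboxylesterase-like proteins. Cs9g06500 had a lowest, median and highest library of 1.22, 2.07 and 2.69 FPKM in VO pulp, against 9.56, 13.4 and 21.4 FPKM in CO pulp, and 14.2, 16.2 and 20.5 FPKM in VO peel, against 35, 39.3 and 51.2 FPKM in CO peel. Its libraries did not overlap in either tissue, with log2 differences of -2.81 (SE 0.27, adjusted p = 0.00203) in pulp and -1.30 (SE 0.13, adjusted p = 0.00281) in peel in limma. Cs9g06490 was close to silent in VOs, with 7 fragments over the 9 VO peel libraries, against 1661 fragments over the 9 CO peel libraries. In FPKM its lowest, median and highest peel library were 0, 0 and 0.151 in VOs, against 4.55, 11.9 and 13.4 in COs (log2 difference -6.14, SE 0.34, adjusted p = 0.000698 in limma). In pulp it had 0 fragments in VOs and 108 in COs, so that the mean was at least 38.0-fold lower in VO pulp with a floor of 3 fragments over the group. The pulp test did not call it (adjusted p = 0.103 in limma), and Taoye, Xianfeng and Jincheng pulp differed, with means of 1.47, 0.391 and 0.0705 FPKM. Without Jincheng it was called (adjusted p = 0.0328), while under other alternatives its adjusted p in limma reached 0.220. Cs9g06450, of the same description and chosen after its values were seen, averaged 1.98 FPKM in VO peel and 2.05 FPKM in CO peel (adjusted p = 0.929 in limma).

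**Figure D3:**
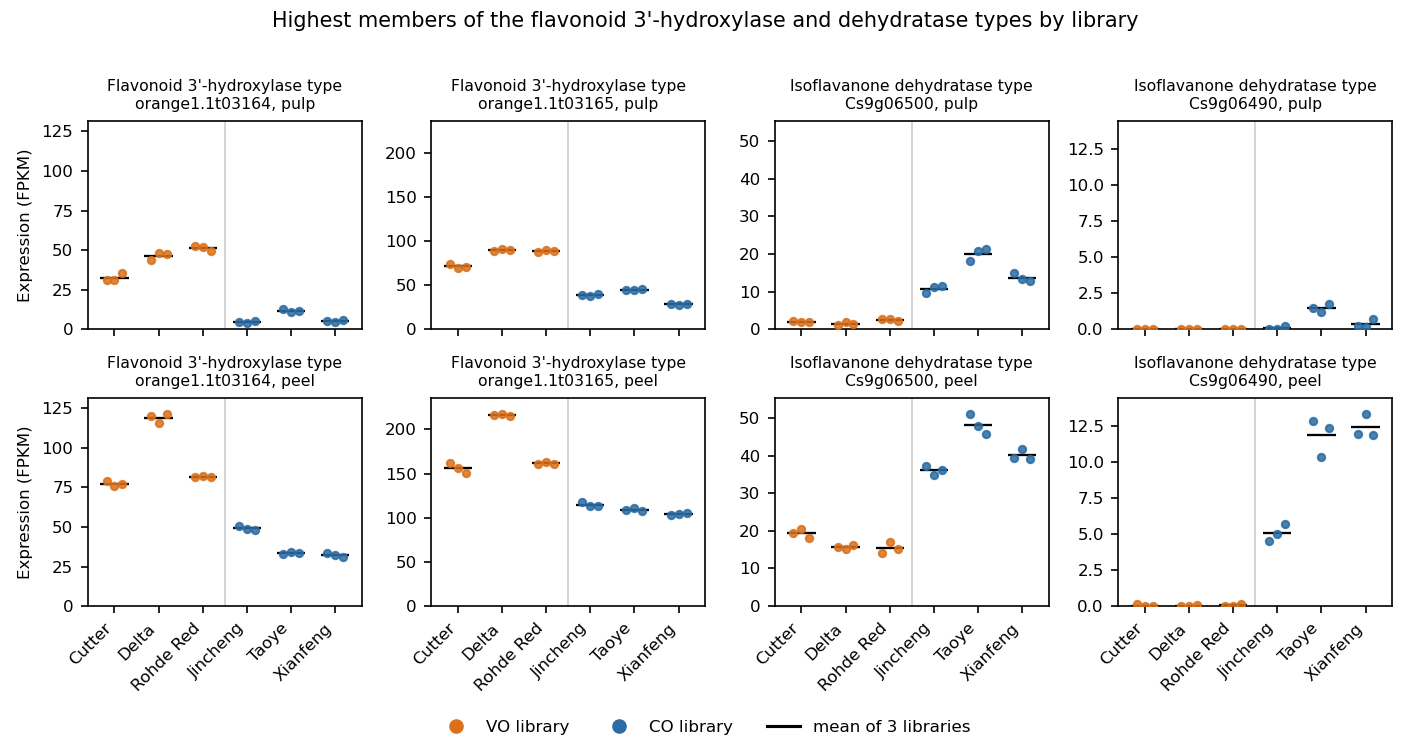
Expression in FPKM of the highest members of the flavonoid 3'-hydroxylase type and the dehydratase type in pulp (upper row) and peel (lower row), on axes that start at 0, with a point for each library, a line at the mean of the 3 libraries of a variety, VO varieties on the left and CO varieties on the right. The hydroxylase type genes orange1.1t03164 and orange1.1t03165 are higher in every VO library, and Cs9g06500 is lower in every VO library of both tissues.

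Each variety's difference between pulp and peel was compared between VOs and COs, which tests whether the group difference depended on the tissue. Of the 35 members 7 were called, against 7.05% of all genes. The signed VO minus CO difference was higher in pulp than in peel for 6 and lower for 1 (3.81% and 3.24% of all genes). This sign does not give the size of the group difference. Cs9g06490, 1 of the 6, had -2.21 in pulp and -6.14 in peel, and Cs9g06500, the lower gene, had -2.81 and -1.30. Among the genes of the first steps, Cs2g14720 had a value of 4.11 (SE 0.61, adjusted p = 0.019), the CHI-like gene Cs7g29780 of 2.60 (SE 0.31, adjusted p = 0.0121) and CHI (Cs7g28130) of 2.17 (SE 0.22, adjusted p = 0.00870), all in limma. CO pulp held 4.11% of the CO peel level of Cs2g14720, 12.3% of that of CHI and 15.1% of that of the CHI-like gene. VO pulp held 55.7%, 60.7% and 90.2% of the VO peel level of the same genes.

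The other calls were of several kinds. F3'H (Cs5g11730) had a difference of 1.1 (SE 0.17, adjusted p = 0.02) and FLS (Cs1g19280) of 0.66 (SE 0.15, adjusted p = 0.0493), both with VO below CO in peel and above it in pulp in mean FPKM and neither called in a single tissue. Cs9g06500 had -1.51 (SE 0.22, adjusted p = 0.0187), since its fall in VOs was larger in pulp. Cs9g06490 had 3.93 (SE 0.57, adjusted p = 0.0181), a value that rests on VO pulp libraries at 0 and on the added 0.1 FPKM, and it was not called with 0.01 FPKM added (adjusted p = 0.0787, all from limma). With 6 variety differences this test was the most sensitive to a single variety. The count of 7 was 3 without Xianfeng (2.37% of all genes called), 3 without Cutter (2.28%), 2 without Delta (1.03%), 4 without Rohde Red (0.869%), 5 without Jincheng (2.53%) and 10 without Taoye (6.52%). Cs2g14720 was not called without Xianfeng, Cutter or Delta (adjusted p = 0.0521 to 0.0676), F3'H not without Jincheng, Delta or Rohde Red (adjusted p = 0.0506 to 0.0649), and FLS not without any of the 6 varieties (adjusted p = 0.0593 to 0.136). Cs9g06500 was not called without Xianfeng, Cutter or Delta (adjusted p = 0.0545 to 0.0597), and Cs9g06490 not without Xianfeng or any VO variety (adjusted p = 0.0513 to 0.0646). CHI and the CHI-like gene stayed called with each variety left out.

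**Figure D4:**
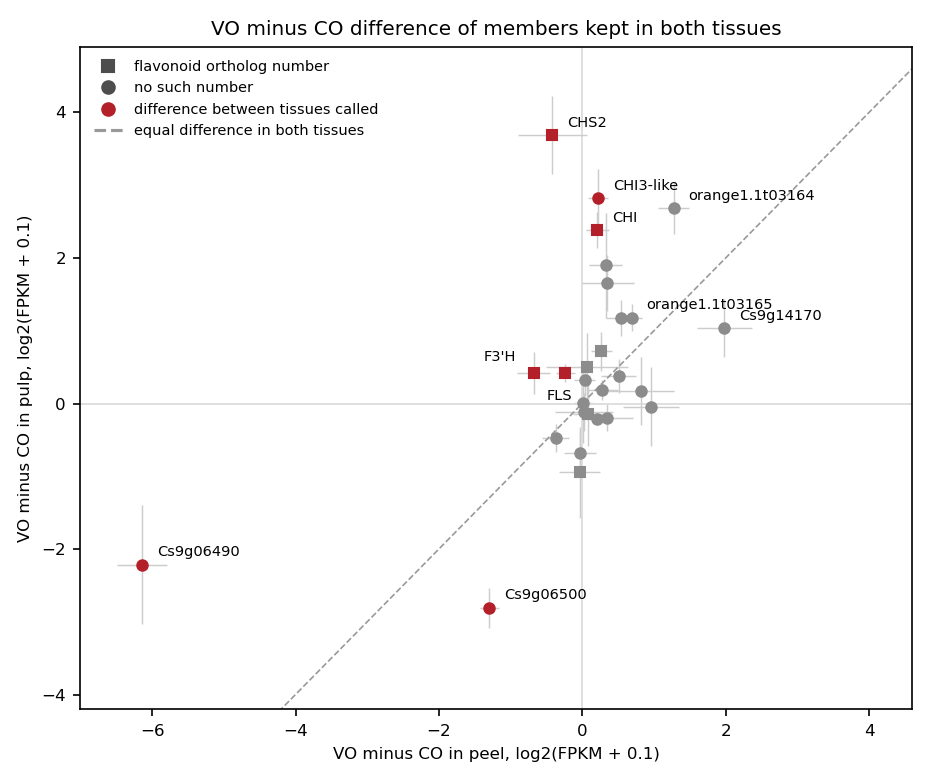
VO minus CO difference in peel (x axis) and in pulp (y axis), both on log2(FPKM + 0.1), for the 28 members tested in both tissues, with bars of 1 SE from limma, squares for members with a flavonoid ortholog number and red for those whose difference between tissues was called. CHS2 (Cs2g14720), CHI and the CHI-like gene lie high above the line of equal difference, at 3.69, 2.38 and 2.82 in pulp and -0.42, 0.21 and 0.22 in peel.

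Between the tissues, most members were lower in pulp. Averaged over VOs and COs, 31 of 35 members were called, 8 higher and 23 lower in pulp, against 72.5% of all genes (22.4% higher and 50.1% lower). This direction depends in part on scaling, because the median pulp minus peel difference of all genes was -0.23 with FPKM as deposited, -0.05 after median-of-ratios scaling and 0.06 after quantile normalization. The share of higher genes among all calls was 30.9%, 45.9% and 54.6% in the same order. The members were 8 higher and 23 lower after median-of-ratios scaling, and 10 higher and 18 lower after quantile normalization. The median over the members was -1.23, lower than that of all genes, and the members with an ortholog number had 5 higher and 3 lower of 10, with a median of 0.34.

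ANS, of the pigment branch, was among the members that were higher in pulp. ANS averaged 10.9 FPKM in VO pulp, against 0.658 FPKM in VO peel, and 8.56 FPKM in CO pulp, against 0.714 FPKM in CO peel (log2 difference 3.73, SE 0.21, adjusted p = 9.9e-06 in limma). Every pulp library exceeded every peel library, which ranged up to 1.69 FPKM. Of the flavonoid 3'-hydroxylase type, orange1.1t04984 averaged 76.1 FPKM in VO pulp, against 5.06 FPKM in VO peel, and 58.1 FPKM in CO pulp, against 3.54 FPKM in CO peel (log2 difference 3.95, SE 0.14, adjusted p = 2.0e-06 in limma). F3H was higher in pulp by 0.71 (SE 0.15, adjusted p = 0.00465) and FLS by 0.34 (SE 0.08, adjusted p = 0.00546, both in limma). FLS had 91.8 FPKM in VO pulp, against 58.2 FPKM in VO peel, but 69.1 FPKM in CO pulp, against 68.5 FPKM in CO peel. The largest fall in pulp was that of orange1.1t01321 (log2 difference -5.43, SE 0.13, adjusted p = 6.9e-07 in limma), with 0.348 FPKM in VO pulp, against 15.2 FPKM in VO peel, and 0.103 FPKM in CO pulp, against 10.5 FPKM in CO peel. The vestitone reductase-like gene Cs5g18970 and the FLS type gene Cs7g23280 were near 0 in pulp, with group means of at most 0.0653 FPKM. Among these genes orange1.1t04984 and Cs7g23280 were chosen after their values were seen.

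**Figure D5:**
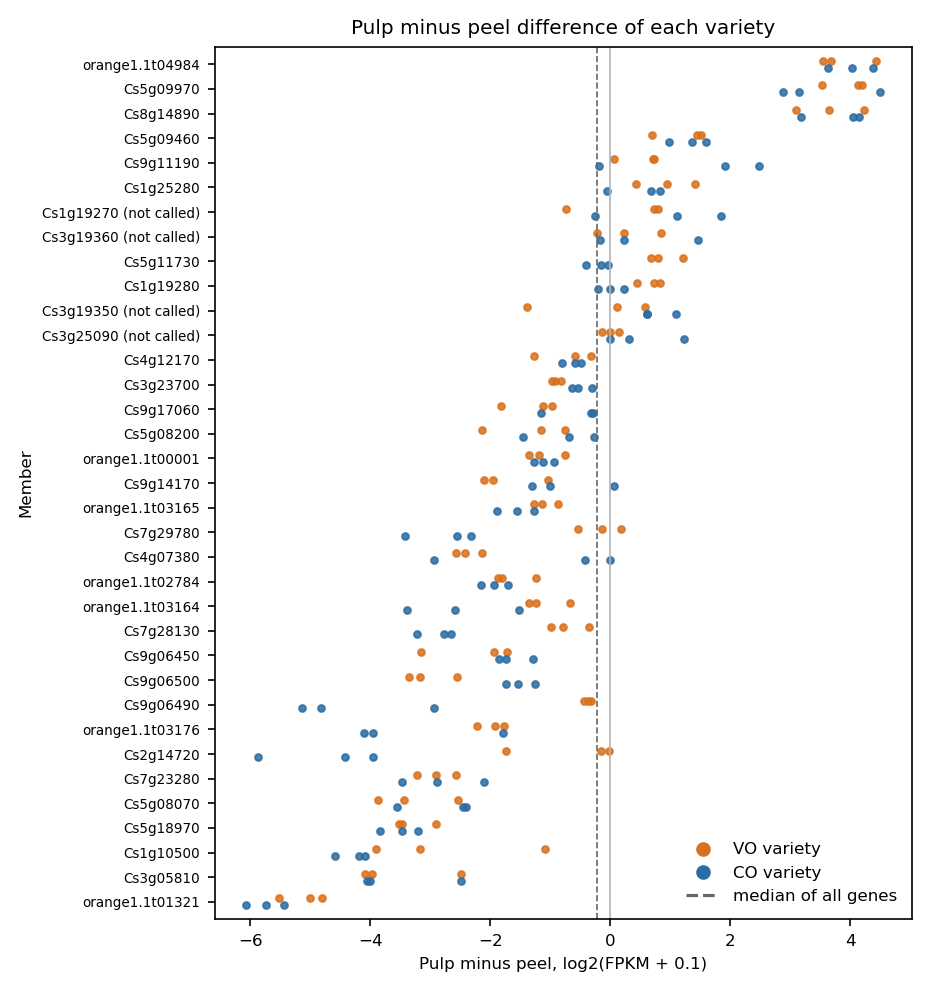
Pulp minus peel difference on log2(FPKM + 0.1) of the 35 members in each variety, ordered by their mean, with VO varieties above CO varieties within a gene and a dashed line at the median of all genes (-0.23). The VO and CO points of Cs2g14720, Cs7g28130 and Cs7g29780 lie apart, with COs further below 0, while those of Cs5g09970 and orange1.1t04984 overlap to the right of 2.

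Some genes on either side of the core were called as well. The shares of all genes called were 19.5% in pulp (12% higher and 7.48% lower) and 20.4% in peel (13.2% higher and 7.15% lower). There were 22 genes described as phenylalanine ammonia-lyase, cinnamate 4-monooxygenase, 4-coumarate--CoA ligase or 4-coumarate--CoA ligase-like. The first 3 kinds form coumaroyl-CoA, and whether the ligase-like genes do was not tested. Of the 22 genes 16 were tested in pulp, with 3 higher and 1 lower in VOs, and 15 in peel, with 1 higher and 5 lower. In pulp, the ligase-like genes Cs3g08510 and Cs5g06990 were among the higher, and the ligase-like gene Cs8g15880 was the lower. Phenylalanine ammonia-lyase Cs6g11940, the first enzyme of phenylpropanoid synthesis, averaged 57.3 FPKM in VO pulp and 44.5 FPKM in CO pulp (adjusted p = 0.0292), and 37.5 FPKM in VO peel and 112 FPKM in CO peel (adjusted p = 0.00174, both in limma). Its pulp call was lost without Jincheng, Taoye or any VO variety (adjusted p = 0.0548 to 0.105). Of 12 genes that transfer sugars to flavonoids, 7 were tested in pulp, with 1 lower in VOs, and 6 in peel, with 2 higher and 1 lower. The gene lower in peel, Cs2g05350, averaged 17.4 FPKM in VO peel and 36 FPKM in CO peel (log2 difference -1.05, adjusted p = 0.00225 in limma). Of 12 regulator genes, 5 were tested in pulp and 3 in peel. TRANSPARENT TESTA 1 (Cs3g18120), a zinc finger protein known from the pigment layer of the Arabidopsis seed coat, averaged 15.0 FPKM in VO pulp and 4.86 FPKM in CO pulp (log2 difference 1.62, adjusted p = 0.00345 in limma). MYB4 (Cs8g12680), known in Arabidopsis as a repressor of phenylpropanoid genes, averaged 22.9 FPKM in VO peel and 32.8 FPKM in CO peel (log2 difference -0.51, adjusted p = 0.0267 in limma), a call lost without any variety except Taoye (adjusted p = 0.0517 to 0.0818). MYB111 (Cs9g02640), an activator of flavonol genes in Arabidopsis, was at 10.4 FPKM in VO pulp and 10.2 FPKM in CO pulp. Genes of these 3 lists were named after their values were seen.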

How the data were processed

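Pulp and peel of 6 varieties were sequenced by RNA-seq (36 libraries). Per the labels, the submitters used TopHat2, RSEM and DESeq (version 1.10.1), and the genome build was not given in the sources used here. The authors deposited FPKM values with a length and description per gene, and no further scaling was applied. Library depth was inferred from the smallest steps of FPKM times gene length, and with it the values came out as whole fragments (100% of values, tolerance 0.02 fragments). Libraries were assigned to VO or CO by variety name. The labels write SO for VO, and the sources differ on the trees per replicate. VO and CO were compared in limma 3.58.1 (R 4.3.3, mean-variance trend) on variety means of log2(FPKM + 0.1) for genes with at least 0.3 FPKM in the mean of a variety, with Benjamini-Hochberg adjustment over all genes kept and a threshold of 0.05. Tissue tests used each variety's difference between pulp and peel. With 3 varieties against 3, an exact permutation test could not go below p = 0.10. The steps were tested on simulated data. Figures were drawn in Python 3.11.15. The members and lists were chosen with earlier results of these data known. Genes named were the 2 highest of each class, up to 12 called per tissue with at least 1 FPKM, up to 6 called in the tissue dependence and those the study lists for pulp; further genes are marked as chosen later. Alternatives changed the pseudocount, filter, scaling, averaging, trend, replicate unit and the libraries or varieties included.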

Additional observations from a re-analysis of the deposited data

Results flagged for a closer look

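The 7 members below had VO minus CO differences that differed between pulp and peel in the test of that difference itself (limma, adjusted p below 0.05). They were 7 of 35 members tested, against 7.05% of all genes called. The values below are the VO minus CO difference in pulp less that in peel, on the log2 scale. They were 4.11 for Cs2g14720 (chalcone synthase 2), 2.60 for Cs7g29780 (the CHI-like gene) and 2.17 for Cs7g28130 (CHI). Cs5g11730 (F3'H) had 1.1 and Cs1g19280 (FLS) had 0.66. The dehydratase type genes Cs9g06490 and Cs9g06500 had 3.93 and -1.51. The VO minus CO differences behind them were 3.69 in pulp and -0.42 in peel for Cs2g14720, 2.82 and 0.22 for Cs7g29780, 2.38 and 0.21 for Cs7g28130, 0.42 and -0.68 for Cs5g11730, 0.42 and -0.24 for Cs1g19280, -2.21 and -6.14 for Cs9g06490, and -2.81 and -1.30 for Cs9g06500.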

How the results depend on the processing

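No called direction of a named gene turned under any alternative, and 2150 single-gene values kept their side of the threshold, 77 lost a call and 75 gained one. When all 9 pairs of a VO and a CO variety had to pass on their libraries, with a log2 difference of at least 1, 2 members were called in peel and 5 in pulp (2.81% and 3.79% of all genes). With libraries as replicates the counts were 16 in peel, 19 in pulp and 15 for the tissue dependence (50.9%, 53.6% and 35.9% of all genes), and with duplicateCorrelation by variety the last was 17 (43.6%). With libraries and the replicate block they were 15 in peel, 17 in pulp and 15 for the tissue dependence (49.3%, 51.6% and 38.4%). Same-numbered libraries showed no shared deviation (correlations between -0.08 and 0.08), which cannot show whether they came from the same fruits or trees. Leaving out libraries or varieties gave 4 to 8 called members in peel (8.34% to 20.1% of all genes) and 6 to 9 in pulp (7.71% to 20%). The same runs gave 30 to 31 for pulp versus peel (66.3% to 72.2%) and 2 to 10 for the tissue dependence (0.869% to 6.89%). Without the 0.3 FPKM filter 12 of 48 members tested were called in pulp, within 1.5 times the main count, against 13.7% of all genes. With 3 varieties per group, genes near 0.3 FPKM rest on few fragments, and a missed threshold does not show that levels were equal. The floor of 3 fragments covers counting error only.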
